A study of Mus musculus with 5 samples.

Results

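Early patterning of the nephron, the filtering unit of the kidney, was followed through 9 genes: the transcription factors Lhx1, Pax2, Pax8 and Irx1, the secreted ligands Wnt4 and Fgf8, the membrane-bound Notch ligands Jag1 and Dll1, and the receptor Notch2. They were picked by gene symbol, with no threshold on a measured value, from 24549 genes on the arrays, at a time when earlier results of these data were known. They were represented by 17 of 39414 probes, and all 9 were found.

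A nephron begins when signals from the branching ureteric bud lead nephron progenitors to condense into an epithelial vesicle. Wnt4 and Fgf8, made by the forming aggregate, act upstream of Lhx1 in this step, and Pax2 and Pax8 are needed for the renal lineage and for its epithelium. The vesicle elongates into the comma- and S-shaped bodies, in which Notch signalling through Notch2, with Jag1 and Dll1 as ligands, sets the proximal fate, and Irx1 marks the middle part that gives rise to loop and distal segments.

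The study profiled kidney bud transplants beside developing and adult kidneys, all from C57BL/6 mice. The groups were tissue recovered 2 weeks and 4 weeks after a kidney bud had been transplanted (the 2-week and 4-week grafts), and kidney from E13.5 embryos, from P0 newborns and from adults 8 weeks old. Total RNA of each was hybridised to 1 single-colour (Cy3) microarray, so each group rests on 1 array, no p-value can be given, and no difference below has a replicate behind it. The sources used here name neither the cells that formed the buds nor the host, the graft site or any pooling of animals, and a graft holds whatever host cells it recruited.

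Between 60.9% and 69.1% of gene spots were well above background on each array. Slide 1 carried the 2-week graft with the E13.5 kidney, and slide 2 the 4-week graft with the P0 and 8-week kidneys. Wherever a comparison crosses slides, the slide cannot be told apart from the group. The male-specific Ddx3y lacked a signal above background at P0 only, and Xist, expressed in females, at 8 weeks only, so the same holds for sex in comparisons with those kidneys. The 6 podocyte, 6 proximal tubule and 6 loop and distal tubule markers were all well above background in both grafts, but at unlike levels. The podocyte markers averaged 1.76 and 0.87 in the 2-week and 4-week graft, against -2.11, 0.52 and -0.29 in the E13.5, P0 and 8-week kidneys. The proximal tubule markers averaged -0.32 and -2.01 in the grafts, against -4.69, 2.68 and 6.47 in these kidneys. The grafts also carried RNA of other cells: the 6 adipocyte markers averaged 3.37 and 4.79 in the 2-week and 4-week graft, against -4.46 to -3.84 in the 3 kidneys, and the 6 adrenal cortex markers averaged -5.26 in the 2-week graft, 4.71 in the 4-week graft and -4.94 to -4.43 in the kidneys. Levels here and below are log2 ratios of a probe's intensity to the 75th percentile of its array, so that 0 is a signal at that percentile. Because whole tissue was measured, fewer cells of a type and less RNA per cell cannot be told apart.

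The upstream sequences of 7 of the 9 genes, as given by RefSeq on build GRCm38.p6, show how different the start regions of the members are. The windows hold 250 bases before and 50 after the start. Those of Lhx1 (chr11:84525485-84525784, minus strand), Wnt4 (chr4:137277385-137277684, plus strand) and Notch2 (chr3:98013288-98013587, plus strand) are printed because these genes show 3 different patterns over the arrays: lowest in both grafts, widely spread with its lowest value in the adult kidney, and narrowest in range. Capitals mark the GC box (GGGCGG or CCGCCC) and the CCAAT box (CCAAT or ATTGG), searched on both strands, with overlapping matches each counted.
Lhx1: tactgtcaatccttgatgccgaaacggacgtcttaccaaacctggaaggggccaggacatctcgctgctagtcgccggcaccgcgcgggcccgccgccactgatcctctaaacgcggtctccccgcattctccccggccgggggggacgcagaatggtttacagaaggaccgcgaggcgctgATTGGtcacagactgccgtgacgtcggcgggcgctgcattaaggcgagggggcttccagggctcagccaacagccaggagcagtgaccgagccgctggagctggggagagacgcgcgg
Wnt4: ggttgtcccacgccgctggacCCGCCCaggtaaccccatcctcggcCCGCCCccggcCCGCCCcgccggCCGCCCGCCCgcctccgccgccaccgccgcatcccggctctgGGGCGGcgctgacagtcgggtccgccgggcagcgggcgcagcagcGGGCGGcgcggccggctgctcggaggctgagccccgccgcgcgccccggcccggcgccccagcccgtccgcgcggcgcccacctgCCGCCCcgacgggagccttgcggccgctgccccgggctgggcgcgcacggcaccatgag
Notch2: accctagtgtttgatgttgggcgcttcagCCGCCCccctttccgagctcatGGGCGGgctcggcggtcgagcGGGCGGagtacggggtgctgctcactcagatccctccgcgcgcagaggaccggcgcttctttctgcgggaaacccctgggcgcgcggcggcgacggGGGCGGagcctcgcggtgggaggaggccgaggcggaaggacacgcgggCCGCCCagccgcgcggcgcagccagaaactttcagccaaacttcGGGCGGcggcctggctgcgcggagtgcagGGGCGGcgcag

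The Wnt4 window was 84.3% G and C with 8 GC boxes, and the Notch2 window 73.0% with 7 GC boxes. The Lhx1 window was 65.7% G and C, with no GC box and 1 CCAAT box. Over 32841 such windows the median was 52.7%, and a GC box was present in 35.7% and a CCAAT box in 37.4%. The 10 windows of the 7 genes ranged from 54.7% to 84.3%. Among the windows not printed, Pax8 had 1 GC box and 1 CCAAT box, 2 of the 3 Pax2 windows had 1 GC box each, and 1 of the 2 Dll1 windows had 2 CCAAT boxes. The letters CTTTGA, the core read by TCF and LEF factors, were found among the members only in Jag1, against 16.0% of all windows. TGGGAA, the core read by the Notch effector RBPJ, was found only in 1 window of Pax2, against 25.6% of all. The homeodomain core TAATTA was in none, against 5.29% of all. These matches describe letters in the windows only, and say nothing of binding.

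Of the 9 genes, 4 (Lhx1, Pax2, Pax8 and Dll1) were lower in both grafts than in any of the 3 kidneys. Of the 19358 genes well above background on at least 1 array, 17.7% had that order. None of the 9 was higher in both grafts than in every kidney, against 15% of those genes. In the other 5 the lowest value was in a kidney: Wnt4, Fgf8, Jag1 and Notch2 were lowest at 8 weeks, Fgf8 being low in both grafts too, and Irx1 was lowest at E13.5. For Notch2 this holds for 1 of its 2 probes. Fgf8 at 8 weeks was not well above background, so its place below the 2-week graft is not settled. The difference there was at least 0.12, and 0 with the background from negative control spots. The same 4 genes stood below all kidneys under the other background corrections and normalizations and in the authors' table. Without the percentile shift, though, the 2-week graft differed from the 8-week kidney by only -0.007 in Pax2 and -0.05 in Dll1. Both gaps were under 2 SDs between spots of a probe, so this order cannot be told there. The 8 members above background everywhere spanned a median of 4.44-fold over the arrays, and 14228 such genes spanned 2.96-fold.

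**Figure D1:**
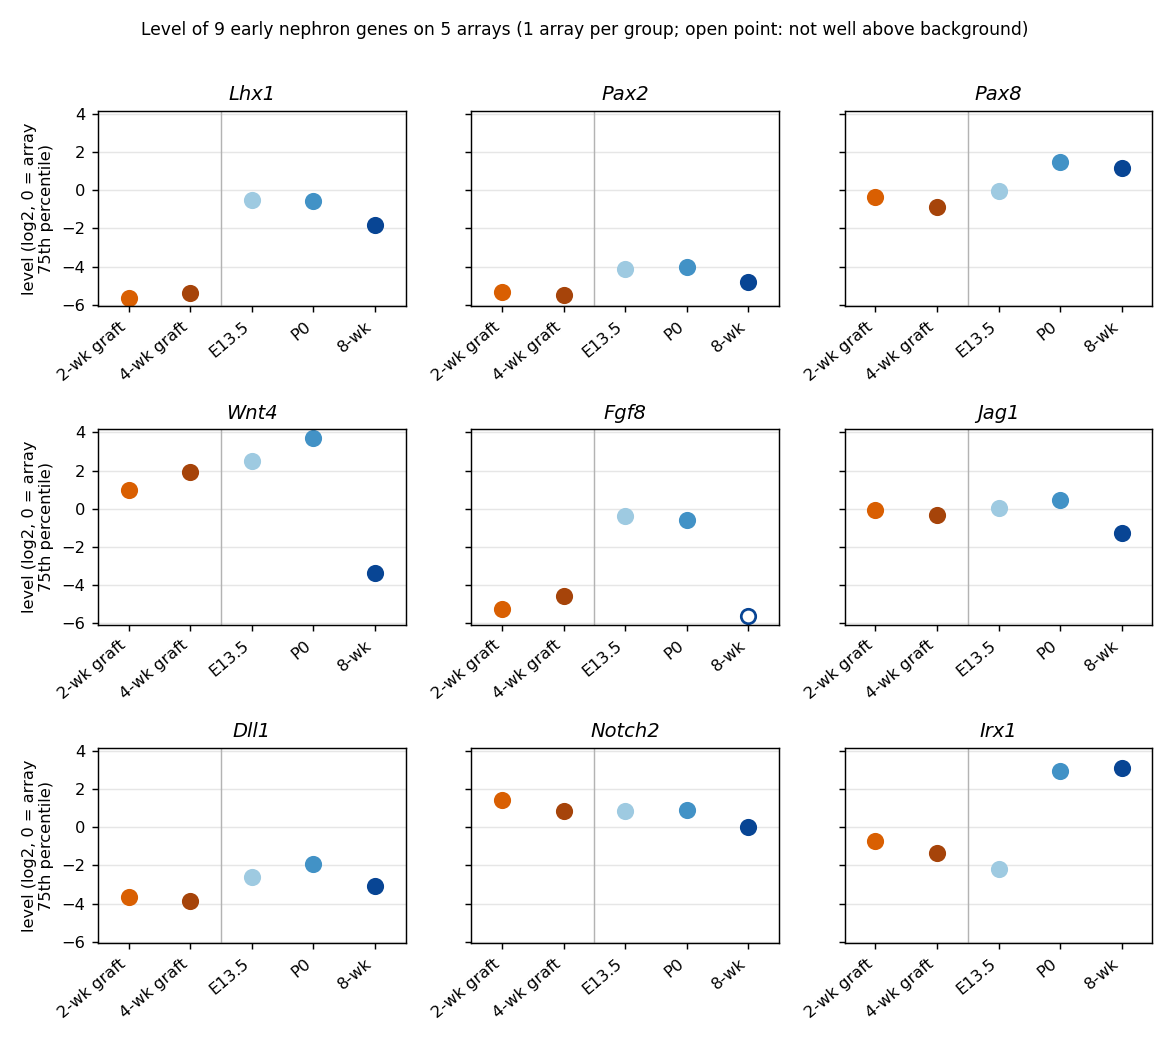
Level of the 9 genes (vertical axis, log2, 0 being the array's 75th percentile) in the 2-week and 4-week grafts, left of the line, and in the E13.5, P0 and 8-week kidneys, 1 array each, with an open point where the signal was not well above background. Lhx1 lies at -5.62 and -5.39 in the grafts, below its 3 kidney values, while Wnt4 lies at -3.37 in the 8-week kidney, below all other arrays.

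Lhx1, the LIM homeodomain factor that the vesicle needs to become a patterned tubule, was far lower in both grafts than in each kidney. Its intensity was 34.9 in the 2-week and 35.9 in the 4-week graft, against 1141 in the E13.5, 1168 in the P0 and 327 in the 8-week kidney. In levels this was -5.62 and -5.39 in the grafts and -0.51, -0.56 and -1.84 in the kidneys. Both grafts thus sat near the lowest signals well above background, at percentiles 3.63 and 3.54 of such genes on their arrays, whereas the E13.5 and P0 kidneys sat at 50.6 and 51.0. The E13.5 and P0 values differed by 0.05, under the 0.12 that equals 2 SDs between spots of a probe, and the 8-week kidney was 2.43-fold lower than P0. The 2-week graft was 34.6-fold lower than the E13.5, 33.3-fold lower than the P0 and 13.7-fold lower than the 8-week kidney. For the 4-week graft these folds were 29.5, 28.5 and 11.7.

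The second Lhx1 probe was likewise lower in both grafts than in every kidney, with smaller gaps. The grafts could not be ordered on this probe, nor the E13.5 and P0 kidneys on the first probe. The second probe read -4.45 and -4.46 in the grafts, against -1.95, -1.76 and -2.56 in the E13.5, P0 and 8-week kidneys. The log2 difference of the 2-week graft from the E13.5 kidney was -5.11 with the first probe, -2.50 with the second and -3.79 with a background estimated from negative control spots, so the fold depends on the probe and on the background while the direction did not change. Markers of the cells around early Lhx1 expression averaged lower in the grafts than in the E13.5 and P0 kidneys, as Lhx1 did. Unlike Lhx1, they averaged higher in the grafts than in the 8-week kidney. The 6 nephron progenitor markers averaged 1.16 and -0.12 in the grafts and 2.91, 1.90 and -0.93 in the E13.5, P0 and 8-week kidneys, and the 6 markers of dividing cells -0.22 and -0.93 in the grafts and 3.07, 1.88 and -3.93 in the kidneys. Single progenitor markers differed in direction. Against the E13.5 kidney 1 was at least 2-fold higher and 4 lower in the 2-week graft, and 0 higher and 4 lower in the 4-week graft. Against the P0 kidney 2 were higher and 2 lower in the 2-week graft, and 0 higher and 2 lower in the 4-week graft. Against the 8-week kidney 4 were higher and 1 lower in the 2-week graft, and 3 higher and 2 lower in the 4-week graft. Their part in the Lhx1 values was not tested.

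Pax2, a paired-box factor of both nephron progenitors and ureteric bud, gave low intensities everywhere. They were 42.4 and 33.2 in the 2-week and 4-week grafts, against 94.5, 106 and 42.6 in the E13.5, P0 and 8-week kidneys. Its levels were -5.34 and -5.50 in the grafts and -4.10, -4.03 and -4.78 in the kidneys, below the kidneys by less than 3-fold throughout. The grafts were 2.36-fold (2-week) and 2.64-fold (4-week) lower than the E13.5 kidney and 2.48-fold and 2.78-fold lower than the P0 kidney. With the background taken from negative control spots, the log2 difference of the 2-week graft from the E13.5 kidney was -0.68 in place of -1.24 and no longer reached 2-fold. The E13.5 and P0 kidneys differed by 0.07, within the spot error. The other 2 Pax2 probes were mostly not well above background and are not used.

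Pax8, the related factor that stays on in renal tubule epithelium, was far brighter than its background on every array. Intensities were 1363 and 823 in the 2-week and 4-week grafts, against 1557, 4890 and 2610 in the E13.5, P0 and 8-week kidneys. The corresponding levels were -0.33 and -0.87 in the grafts and -0.06, 1.51 and 1.16 in the kidneys. The grafts therefore stood close to the E13.5 kidney, 1.21-fold and 1.76-fold below it, and further below the older kidneys. The 2-week graft was 3.57-fold lower than P0 and 2.80-fold lower than the 8-week kidney, and the 4-week graft 5.19-fold and 4.08-fold. Within the kidney series Pax8 was 2.96-fold higher at P0 than at E13.5, and the 8-week kidney was 1.27-fold lower than P0.

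Irx1, an Iroquois factor of the intermediate part of the S-shaped body, was far higher in the P0 and 8-week kidneys than at E13.5. Intensities were 1054 and 589 in the 2-week and 4-week grafts, against 360 in the E13.5, 13499 in the P0 and 10066 in the 8-week kidney. In levels, the grafts had -0.70 and -1.35 and the kidneys -2.17, 2.97 and 3.1. The grafts thus lay between the embryonic kidney and both older kidneys, and nearer the embryonic one. Irx1 was 35.4-fold higher in the P0 than in the E13.5 kidney. The 8-week kidney was 1.1-fold higher than the P0 kidney, a gap whose sign turned without the percentile shift (-0.42 in place of 0.13). Against the P0 kidney the 2-week graft was 12.8-fold and the 4-week graft 20.0-fold lower, while against the E13.5 kidney they were 2.77-fold and 1.76-fold higher. A normexp correction whose fit failed on the E13.5 array gave -0.51 in place of 0.82 for the 4-week graft against that kidney. Markers of segments moved in a similar order: the 6 loop and distal tubule markers averaged -0.46 and -1.34 in the grafts and -5.33, 0.03 and 3.70 in the kidneys by age, with Slc12a1, Slc12a3, Kcnj1 and Klk1 not well above background at E13.5. Their part in the Irx1 values was not tested.

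Wnt4, the ligand that drives the change of mesenchyme to epithelium, was bright in the grafts and in both young kidneys and low in the adult. Intensities were 3344 and 5695 in the 2-week and 4-week grafts, against 9259, 22230 and 113 in the E13.5, P0 and 8-week kidneys. Levels were 0.96 and 1.92 in the grafts and 2.52, 3.69 and -3.37 in the kidneys. No other member was spread so widely, the P0 kidney being 134-fold above the 8-week kidney. Both grafts lay below the young kidneys and well above the adult one. The 2-week graft was 2.93-fold lower than E13.5, 6.62-fold lower than P0 and 20.2-fold higher than the 8-week kidney, and for the 4-week graft the folds were 1.51 lower, 3.41 lower and 39.3 higher. The second Wnt4 probe gave the same order, with -1.90 and -1.16 in the grafts, -0.77 and 0.49 in the E13.5 and P0 kidneys and a signal not well above background in the 8-week kidney.

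Wnt4 is also made in the adrenal cortex, whose markers set the grafts apart. All 6 were well above background in the 4-week graft, with a mean level of 4.71. In the 2-week graft 3 of the 6 were, with a mean of -5.26, and Cyp11a1, Hsd3b1 and Cyp11b1 were not. Wnt4 reached 0.96 in that 2-week graft. It was 1.94-fold higher in the 4-week graft than in the 2-week graft, the largest gap between the grafts among the members, and the part of the adrenal markers in that gap was not tested.

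Fgf8, the ligand that keeps the forming vesicle alive, was near the detection limit outside the young kidneys. Intensities were 44.6 and 63.4 in the 2-week and 4-week grafts, against 1250, 1131 and 24.0 in the E13.5, P0 and 8-week kidneys, the last not well above background. Levels were -5.26 and -4.57 in the grafts and -0.37 and -0.61 in the E13.5 and P0 kidneys. Fgf8 was thus low in both grafts and in the adult kidney, and clearly measured in the young kidneys alone. The 2-week graft was 29.7-fold lower than the E13.5 and 25.3-fold lower than the P0 kidney, and the 4-week graft 18.3-fold and 15.6-fold lower. The 8-week kidney was at least 32.2-fold lower than the E13.5 and at least 27.4-fold lower than the P0 kidney. Against that dim adult signal the 2-week graft was at least 1.08-fold and the 4-week graft at least 1.75-fold higher. A second Fgf8 probe was well above background in the E13.5 and P0 kidneys alone, at -2.70 in each, and the third was dim on every array.

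**Figure D2:**
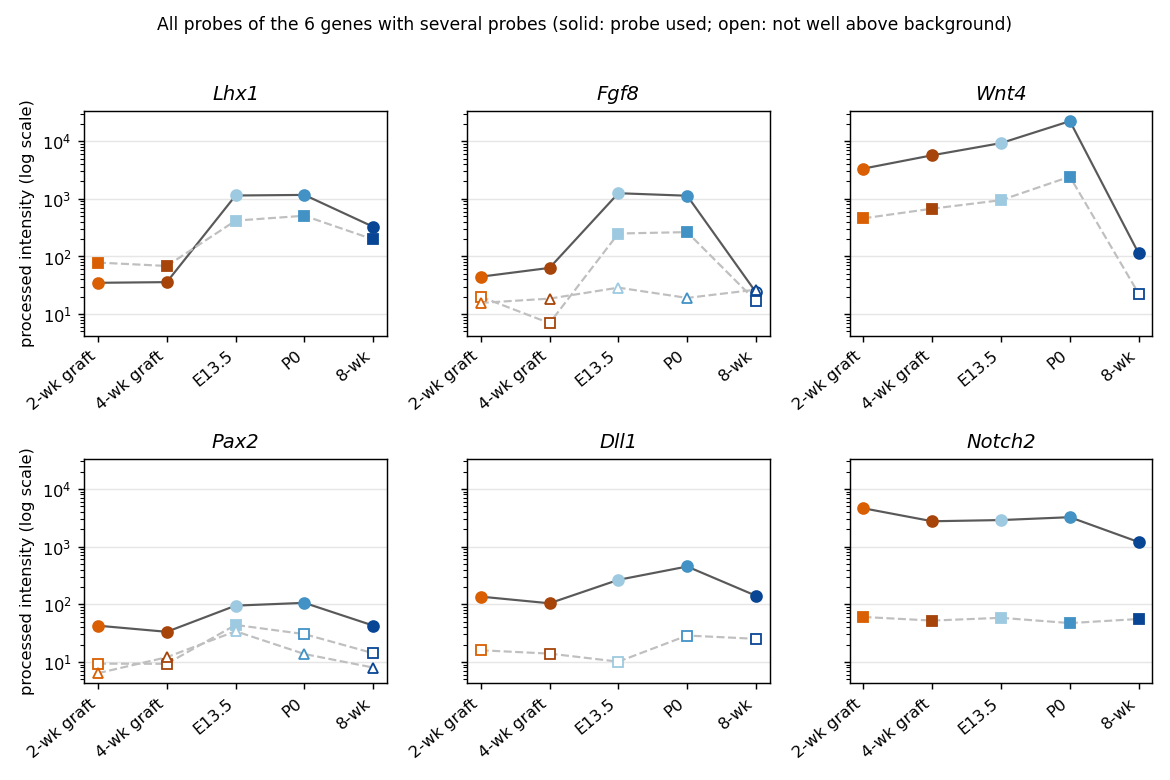
Processed intensity (vertical axis, log scale) of every probe of the 6 genes with several probes on the 5 arrays, with a solid line for the probe used, dashed lines for the others (lines join the points of a probe) and open points where a signal was not well above background. For Lhx1 both probes are lower in the 2 grafts than in the 3 kidneys, and for Wnt4 both probes are lowest in the 8-week kidney, while the second Notch2 probe stays nearly level.

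Jag1, a Notch ligand of the nephron and of vessel walls, was within 2-fold of the E13.5 and P0 kidneys in both grafts. Intensities were 1640 and 1191 in the 2-week and 4-week grafts, against 1679, 2389 and 494 in the E13.5, P0 and 8-week kidneys. Levels were -0.06 and -0.34 in the grafts and 0.05, 0.47 and -1.24 in the kidneys. Only the 8-week kidney stood apart, 3.29-fold lower than P0, while the 2-week graft differed from the E13.5 kidney by 0.11, within the spot error. Jag1 was 2.27-fold higher in the 2-week and 1.88-fold higher in the 4-week graft than in the 8-week kidney.

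Dll1, the ligand of the S-shaped body, was printed as 10 spots of a single probe on every array, which gives a spot error for the gene itself. Its level was -3.66 ± 0.07 in the 2-week and -3.86 ± 0.06 in the 4-week graft, against -2.61 ± 0.17 in the E13.5, -1.93 ± 0.08 in the P0 and -3.06 ± 0.07 in the 8-week kidney (mean ± SD of 10 spots on 1 array). The highest spots of the grafts, at -3.56 and -3.77, lay below the lowest spot of each kidney, at -2.82, -2.06 and -3.20. This covers spot error only, not labelling or animals. The gap to the 8-week kidney also depends on the scaling. Dll1 was 1.52-fold lower than there in the 2-week and 1.74-fold lower in the 4-week graft. Without the percentile shift the difference of the 2-week graft from the 8-week kidney was -0.05 in place of -0.60, less than the spot SD of 0.07. Dll1 was 2.07-fold lower in the 2-week graft than in the E13.5 and 3.32-fold lower than in the P0 kidney, and in the 4-week graft 2.37-fold and 3.80-fold lower. With the background from negative control spots the log2 difference of the 2-week graft from the E13.5 kidney was -0.79 in place of -1.05, short of 2-fold. It also fell short without the percentile shift (-0.97) and in the authors' table (-0.86). The other Dll1 probe was not well above background on any array.

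**Figure D3:**
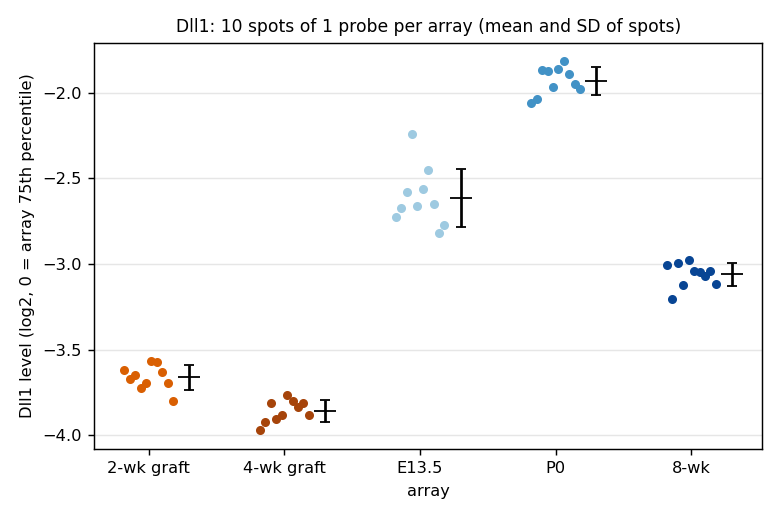
Level of Dll1 (vertical axis, log2, 0 being the array's 75th percentile) for each of 10 spots of 1 probe on the arrays of the 2-week and 4-week grafts and the E13.5, P0 and 8-week kidneys, with the mean and SD of the spots beside them. With this scaling the graft spots, none above -3.56, lie under all kidney spots, and the P0 spots are the highest.

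Notch2, the receptor required for proximal nephron fate, was the member with the narrowest range. Intensities were 4611 and 2746 in the 2-week and 4-week grafts, against 2881, 3231 and 1196 in the E13.5, P0 and 8-week kidneys. Levels were 1.43 and 0.87 in the grafts and 0.83, 0.91 and 0.03 in the kidneys, 2.63-fold from highest to lowest. The 4-week graft, the E13.5 and the P0 kidney could not be ordered, since neighbours differed by 0.04. The 2-week graft was highest, 1.51-fold above E13.5, 1.43-fold above P0 and 2.63-fold above the 8-week kidney. A second, much dimmer Notch2 probe read -4.83 and -4.85 in the grafts and -4.80, -5.19 and -4.40 in the kidneys, which turns the comparison with the 8-week kidney round, so the Notch2 differences hold for 1 of its 2 probes. Jag1 and Notch2 are also made in vessels and their walls. The 6 endothelial markers averaged 0.65 and 0.48 in the grafts and -0.54, 0.31 and -0.06 in the kidneys, and the 6 smooth muscle and pericyte markers 2.38 and 2.24 in the grafts and -1.32, 1.5 and -1.39 in the kidneys. Myh11 of the latter list was not well above background at E13.5. The part of these cells in the values of Jag1 and Notch2 was not tested.

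Set against the E13.5 kidney, the stage at which nephrons are being made, 5 of the 9 genes were at least 2-fold lower in the 2-week graft (Lhx1, Pax2, Wnt4, Fgf8 and Dll1), where 20.3% of 18256 genes were. Irx1 alone was at least 2-fold higher, against 21.5% of genes. Dll1 left the lower genes, making them 4, without the percentile shift, in the authors' table and with the mean over probes. With the background from negative control spots Pax2 left as well, making them 3. In the 4-week graft 4 were lower (Lhx1, Pax2, Fgf8 and Dll1), against 21.8% of 18312 genes, and none was higher, against 24.4%. The 9 genes had a median difference of -1.05 in the 2-week graft and of -0.81 in the 4-week graft, beside medians of -0.11 and -0.02 over all genes compared. Beyond 4-fold, 2 members were lower in each graft (Lhx1 and Fgf8), against 5.41% of genes in the 2-week and 6.87% in the 4-week graft, and 0 were higher in the 2-week graft, against 11.3%. The grafts share the kidney array they are set against, and each kidney shares both grafts, so these comparisons are not independent of one another.

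Against the P0 kidney 7 of the 9 genes were at least 2-fold lower in each graft. Those were all but Jag1 and Notch2, while 11.8% of 18314 genes were lower in the 2-week and 13.9% of 18438 in the 4-week graft. None was at least 2-fold higher, against 15.4% and 19.2% of genes. Beyond 4-fold, 4 members were lower in the 2-week graft (Lhx1, Wnt4, Fgf8 and Irx1), against 3.37% of genes, and 4 in the 4-week graft (Lhx1, Pax8, Fgf8 and Irx1), against 4.36%. The members' medians were -1.84 and -1.93, beside -0.07 and -0.02 for all genes. Pax2 left these counts, making them 6, when the background came from negative control spots. Without the percentile shift, Jag1 reached 2-fold as well in the 4-week graft, where that scaling moved the median of all genes to -0.21.

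Relative to the 8-week kidney the members split. In the 2-week graft Wnt4, Jag1 and Notch2 were at least 2-fold higher, 3 of 9 against 21.7% of 18319 genes, and Lhx1, Pax8 and Irx1 lower, 3 of 9 against 22.5%. In the 4-week graft Wnt4 alone was higher, 1 of 9 against 22.3% of 18302 genes, and Lhx1, Pax8 and Irx1 were lower, 3 of 9 against 18.6%. At 4-fold, Wnt4 was still higher in each graft, 1 of 9 against 11.8% of genes in the 2-week and 11.7% in the 4-week graft. Lower at 4-fold were Lhx1 and Irx1 in the 2-week graft, 2 of 9 against 8.67%, and Lhx1, Pax8 and Irx1 in the 4-week graft, 3 of 9 against 7.8%. The members' medians were -0.56 and -0.72, beside -0.01 and 0 over all genes. These comparisons depend on the scaling, since without the percentile shift all genes had a median of 0.43 in the 2-week graft and of 0.32 in the 4-week graft, and the share of genes called higher among those called was 71.0% and 68.7%, in place of 49.1% and 54.5%. With that scaling 4 members were higher in the 4-week graft, adding Fgf8, Jag1 and Notch2, while Pax8 dropped below 2-fold in the 2-week graft (-0.94).

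Between the grafts no member differed by 2-fold. Of the 9 genes, none was 2-fold higher in the 4-week than in the 2-week graft, against 9.09% of 18485 genes, and none was 2-fold lower, against 5.68%. Wnt4 (0.96) and Fgf8 (0.70) were the members furthest above, and Irx1 (-0.65), Notch2 (-0.56) and Pax8 (-0.54) the furthest below.

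**Figure D4:**
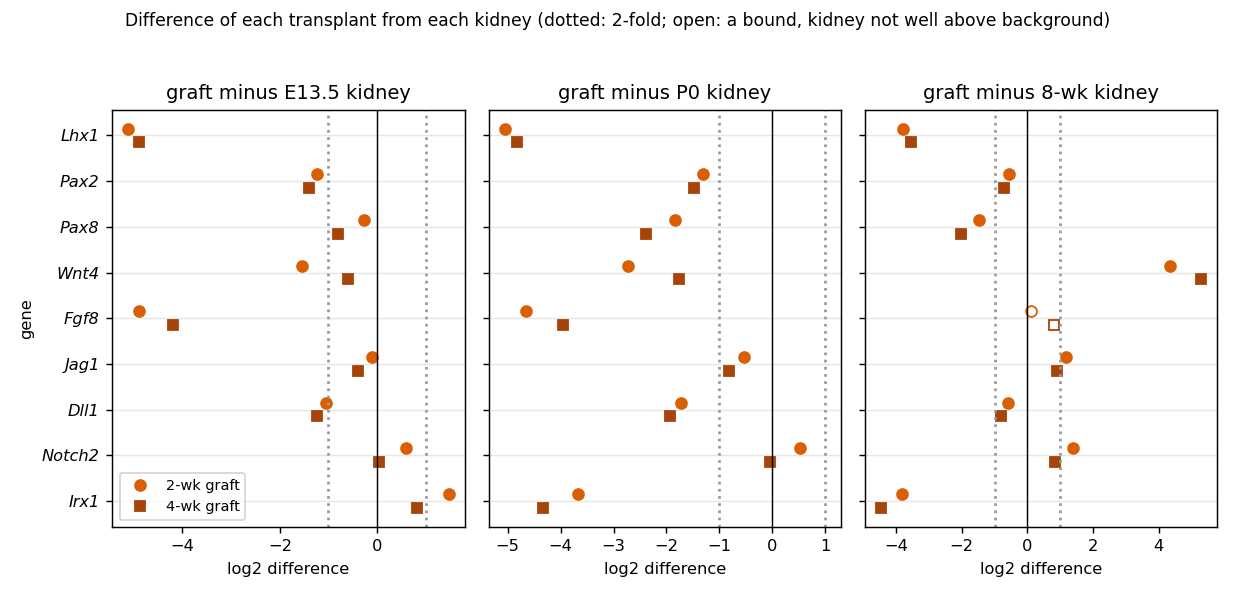
Log2 difference (horizontal axis) of the 2-week graft (circles) and the 4-week graft (squares) from the E13.5, P0 and 8-week kidneys for the 9 genes, with dotted lines at 2-fold and open symbols for bounds. Lhx1 lies left of -3 in all 3 panels, and Wnt4 is left of 0 against the E13.5 and P0 kidneys and right of 4 against the 8-week kidney.

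Over kidney age itself, most members were within 2-fold at birth and lower in the adult. In the P0 kidney Pax8 (1.56), Wnt4 (1.18) and Irx1 (5.14) were at least 2-fold higher than at E13.5, 3 of 9 against 13.9% of 17563 genes, and none was lower, against 11.9%. In the 8-week kidney 5 of 9 were at least 2-fold lower than at P0 (Lhx1, Wnt4, Fgf8, Jag1 and Dll1), against 21% of 17651 genes, and none was higher, against 23.6%. Compared with E13.5, the 8-week kidney had Pax8 and Irx1 higher, 2 of 9 against 27.3% of 17630 genes, and Lhx1, Wnt4, Fgf8 and Jag1 lower, 4 of 9 against 27.3%. At 4-fold, only Irx1 separated the P0 from the E13.5 kidney, being higher at P0 (1 of 9, against 6.23% of genes), and Wnt4 and Fgf8 were lower at 8 weeks than at P0, 2 of 9 against 9.35%. Between 8 weeks and E13.5, Irx1 was 4-fold higher, 1 of 9 against 14.1%, and Wnt4 and Fgf8 4-fold lower, 2 of 9 against 12.6%. The median of the members was 0.42 at P0 against E13.5, -1.13 at 8 weeks against P0 and -0.80 at 8 weeks against E13.5, beside -0.12, 0.07 and -0.03 over all genes.

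Among genes of the wider Wnt pathway, those past 2-fold were lower in the grafts than at E13.5 and mostly higher than in the adult. Of 19 measured genes (20 listed), 6 in the 2-week and 8 in the 4-week graft were at least 2-fold lower than at E13.5. None was higher, and the medians were -0.74 and -0.87. Over all genes 20.3% and 21.8% were lower and 21.5% and 24.4% higher, with medians of -0.11 and -0.02. Relative to the 8-week kidney, 10 of 19 were higher and 2 (Lgr4 and Sp5) lower in the 2-week graft, with a median of 1.12, where 21.7% of all genes were higher and 22.5% lower with a median of -0.01, or 0.43 without the percentile shift. Lef1, a nuclear effector of Wnt signals, had levels of -1.12 in each graft, against 1.23, 1.26 and -3.36 in the E13.5, P0 and 8-week kidneys. Rspo1, a secreted booster of Wnt signals, was at 0.60 and -0.01 in the grafts and at 3.21 and 2.42 in the E13.5 and P0 kidneys. The secreted inhibitor Dkk1 was at -4.83 in the 2-week graft and not well above background in the 4-week graft, against -0.52 and 0.02 in the same kidneys. Wnt9b, the ureteric bud signal upstream of Wnt4, was at -2.69 and -2.83 in the grafts and at -1.09, -0.71 and -2.99 in the E13.5, P0 and 8-week kidneys.

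The Notch list of 21 genes moved in no common direction against the young kidneys. In the 2-week graft 4 were at least 2-fold higher and 3 lower than at E13.5, with a median difference of 0.01, where 21.5% of all genes were higher and 20.3% lower. Against the 8-week kidney 9 were higher and 2 lower, with a median of 0.94, where 21.7% of all genes were higher and 22.5% lower, and where all genes had a median of -0.01, or 0.43 without the percentile shift. The target genes that read Notch activity were mixed. Hes5 was at -3.42 and -5.02 in the grafts and at -0.63 and -1.07 in the E13.5 and P0 kidneys, and Hey1 at 0.14 and -0.70 in the grafts and at 2.00 and 1.71 in these kidneys. Heyl differed less, at -0.32 and -0.94 in the grafts, against 0.11 and -0.16 in these kidneys. Hes1 had differences of -0.94 and -1.04 from the E13.5 kidney in the 2-week and 4-week grafts, and of 0.38 and 0.28 from P0. Nrarp was 0.51 and 0.63 above the E13.5 kidney, while its differences from P0 were -1.02 and -0.91. Hey2 was at -4.91 in the 2-week graft, between -3.91 at E13.5 and -5.33 at P0, and was not well above background in the 4-week graft. Against the 8-week kidney the differences of Hey1 were 3.69 and 2.85, and those of Heyl 3.23 and 2.61. The ligand Jag2 and the vessel ligand Dll4 went the other way in the 2-week graft, with differences of 1.25 and 1.27 from the E13.5 kidney. In the 4-week graft these were 2.16 and 0.87.

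In the Fgf list of 15 genes 6 were at least 2-fold lower and 2 higher in the 2-week graft than in the E13.5 kidney. In the 4-week graft 7 were lower and 2 higher, and the medians were -0.77 and -0.84. Over all genes 20.3% were lower and 21.5% higher in the 2-week graft, and 21.8% and 24.4% in the 4-week graft. Etv4, a transcription factor that answers Fgf and Gdnf signals, was at 0.48 and -0.82 in the grafts and at 3.58, 2.84 and -1.86 in the E13.5, P0 and 8-week kidneys. Fgf20, a progenitor ligand, was not well above background in either graft and was at -2.29, -4.13 and -4.69 in the kidneys. Against the direction of its list Fgf7, a stromal ligand, was at 0.42 and -0.60 in the grafts and at -2.79 and -4.50 in the E13.5 and P0 kidneys.

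**Figure D5:**
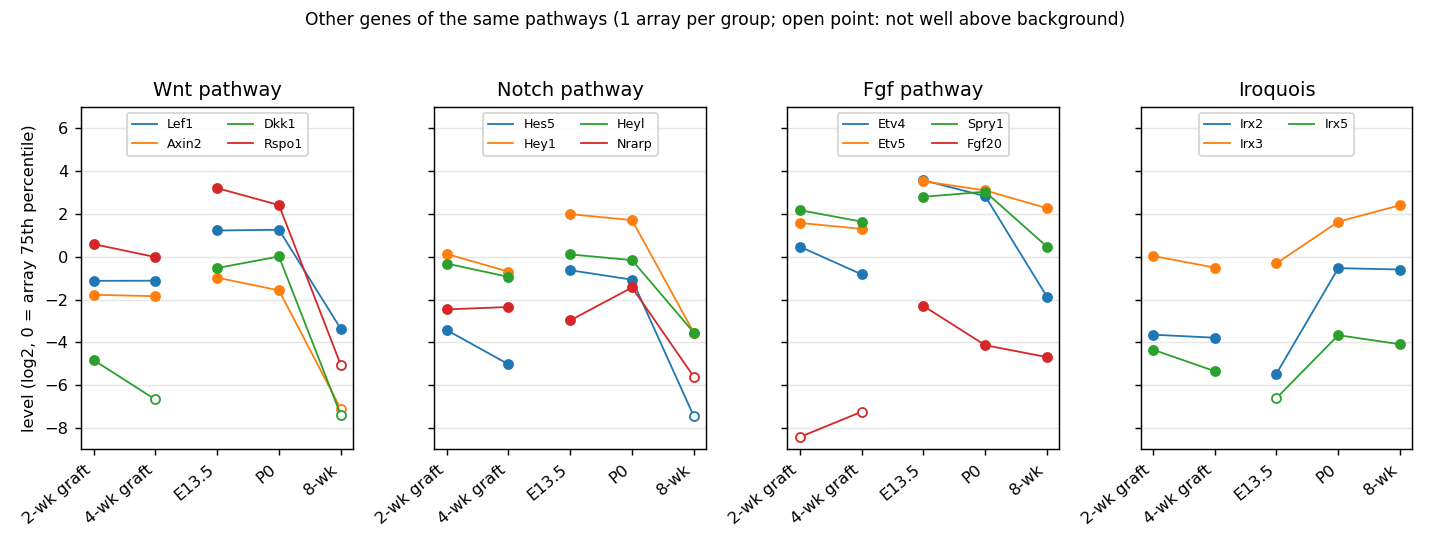
Levels (vertical axis, log2, 0 being the array's 75th percentile) of genes of the Wnt, Notch and Fgf pathways and of 3 Iroquois genes in the 2-week and 4-week grafts and the E13.5, P0 and 8-week kidneys, 1 array each, with open points for signals not well above background and lines joining the points of a gene within grafts and within kidneys. Lef1, Hey1 and Etv4 in the grafts lie between their E13.5 and their 8-week values, and Irx2 is higher at P0 and 8 weeks than in the grafts.

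Partners and targets of Lhx1, Pax2 and Pax8 were mostly lower in the grafts than at E13.5. Of 16 measured genes of a list of 17, 9 in the 2-week and 11 in the 4-week graft were at least 2-fold lower and 1 was higher in each, with median differences of -1.22 and -1.76. Over all genes 20.3% were lower and 21.5% higher in the 2-week graft, and 21.8% and 24.4% in the 4-week graft. Gdnf, a ligand gene under Pax2, was at -4.63 and -4.66 in the grafts, against 2.69 and 2.10 in the E13.5 and P0 kidneys, and was not well above background in the 8-week kidney. Six2, which keeps progenitors undifferentiated, was at 2.14 and 0.38 in the grafts, against 4.68 and 3.45 in these kidneys.

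Most genes of the renal vesicle and S-shaped body were lower in the grafts than in the P0 kidney. Of 17, 11 in the 2-week and 10 in the 4-week graft were at least 2-fold lower and Lypd1 alone was higher in each. The medians were -1.31 and -1.82. Among all genes 11.8% and 13.9% were lower, and 15.4% and 19.2% higher. Against the E13.5 kidney 8 in the 2-week and 7 in the 4-week graft were lower and 2 higher in each, with medians of -0.31 and -0.81. Of all genes 20.3% and 21.8% were lower in that comparison, and 21.5% and 24.4% higher. Against the 8-week kidney 9 were higher and 6 lower in each graft, with medians of 1.28 and 1.14. For all genes the shares past 2-fold upward in that comparison were 21.7% and 22.3%, and those downward 22.5% and 18.6%. The all-gene medians were -0.01 and 0, or 0.43 and 0.32 without the percentile shift, so these list medians depend on the scaling. Cdh4, an adhesion molecule of the vesicle, was at -2.14 and -2.97 in the grafts and at 1.26 and 0.90 in the E13.5 and P0 kidneys.

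Iroquois and segment transcription factors, measured for 12 of 14, differed between the grafts. In the 2-week graft 5 were at least 2-fold higher, among them Irx2, Irx5 and Hnf4a, and none lower than at E13.5, with a median of 0.73, and in the 4-week graft 3 were higher and 2 lower, with a median of -0.29. Of all genes 21.5% were higher and 20.3% lower than at E13.5 in the 2-week graft, and 24.4% and 21.8% in the 4-week graft. Against P0, 1 was higher and 4 lower in the 2-week graft, with a median of -0.27, and none was higher and 9 lower in the 4-week graft, with a median of -1.37. Of all genes 15.4% were higher and 11.8% lower than at P0 in the 2-week graft, and 19.2% and 13.9% in the 4-week graft. Between the grafts, 7 of the 12 were at least 2-fold lower in the 4-week graft and none was higher. Among all genes 5.68% were lower there and 9.09% higher. Irx2 was at -3.64 and -3.78 in the grafts and at -5.46, -0.53 and -0.59 in the E13.5, P0 and 8-week kidneys. Irx3 was at 0.04 and -0.50 in the grafts and at -0.30, 1.64 and 2.41 in the kidneys. Hnf4a, the factor of proximal tubule maturation, was at 0.30 and -0.91 in the grafts, against -2.55, 3.71 and 6.33 in the kidneys. Of the members' paralogs, 7 of 11 could be set against the E13.5 kidney. In the 2-week graft Lhx2, Jag2 and Dll4 were higher and Fgf18 lower, with a median of 0.36, where 21.5% of all genes were higher and 20.3% lower.

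Which genes shared a member's profile was measured as the root-mean-square distance of log2 profiles over the 5 arrays, after each gene's mean was removed, among 12860 genes above background on all arrays (906 genes with the same dim array for Fgf8). These are descriptions over 5 arrays. The distance is not scaled to a gene's range, so it tends to be larger for genes of wide range. It cannot tell whether 1 member has a more unusual pattern than another. Irx1 was closest to Avpr2, the vasopressin receptor of the collecting duct (0.28), then to Misp3 and Irx2 (0.45 each). Pax8 was closest to Crb3, an epithelial polarity gene (0.21), then Pou3f3, a factor of the loop of Henle (0.24), and Osbpl10 (0.28). For Fgf8 the nearest were Myb (0.49) and the replication gene Ticrr (0.65). Lhx1 and Wnt4 had the largest distances. The nearest to Lhx1 were Ocm (0.61), Dusp9 (0.77) and Mcm10 (0.92), and to Wnt4 Smarca1 (0.71), Arxes2 (0.73) and Slc16a3 (0.76).

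The nearest genes to the other members, which had the narrowest ranges, lay closer. Notch2 was closest to Rnf43 (0.02), Sh3bgrl3 (0.05) and Rflnb (0.07), and Jag1 to H2bc21 (0.06), Sh3bp4 and Snhg10 (0.07 each). Pax2 was closest to Fam199x (0.09), Cep57 and Mogs (0.12 each), and Dll1 to Map3k21 and Arhgap8 (0.14 each) and Fam199x (0.18). Among the members themselves the closest pair was Pax2 and Dll1 (0.20), followed by Jag1 and Notch2 (0.38). These are the members of narrowest range, and the Notch2 profile holds for 1 of its 2 probes.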

How the data were processed

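RNA of 5 mouse tissues was measured on 1 single-colour Agilent array each. Spot intensity values in the deposited scanner files had been background-subtracted and detrended by the scanner software (Agilent Feature Extraction, version 10.7.3.1, in the submitters' processing notes), and other flags mark spots as well above background, saturated or outliers, per the file headers. The gene table deposited by the authors holds log2 values. Of these, 99.6% matched the unshifted log2 intensity, taken as a mean over probes and centred on the median of each of 30224 rows, within 0.01. After a 75th percentile shift, which its title line names, 18.2% matched. Its column medians were 0 (2-week graft), -0.08 (4-week graft), 0.05 (E13.5), 0 (P0) and 0 (8-week kidney), and it served as an alternative.

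The level used was the log2 ratio of a spot's processed intensity to the 75th percentile of its array. These percentiles were 1713.44, 1503.86, 1619.7, 1720.1 and 1170.2 in that order of arrays. Of 43020 gene spots, 447 flagged as outliers were left out, and 0 were saturated. Replicate spots were averaged, and the brightest probe by mean level represented a gene, so levels of different genes are not compared. Gene names came from the identifiers in the authors' table matched to RefSeq (31781 probes), or from its symbols (2026), and 5607 probes stayed unnamed. The array design is on mm9, so no probe coordinates are given.

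A signal not well above background entered at the higher of itself and the lowest present level on that array, and its fold is "at least". Genes dim on both arrays were left out. A difference was counted from 2-fold, with 4-fold as an alternative. The other alternatives were normexp (limma 3.58.1 in R 4.3.3, offset 50) in 3 forms, quantile normalization, no shift, the mean over probes and other background filters. Spots of a probe on an array had a median SD of 0.05 to 0.06, and the number of arrays limits the precision. Computation of the differences was checked on simulated data. The 9 genes, the gene lists and the rule for named genes (every member, list genes at least 4-fold apart in a comparison of graft and kidney or against their list, and the 3 nearest profiles) were chosen with earlier results of these data known. Some genes named by the rule are not reported here.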

Additional observations from a re-analysis of the deposited data

How the results depend on the processing

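Counts of members at least 2-fold apart kept within 1.5 times of the values in the report under most alternatives, with these exceptions. At 4-fold, the 2-week graft against the E13.5 kidney had 0 higher (1 at 2-fold) and 2 lower (5), and the 4-week graft 2 lower (4). Against P0 each graft had 4 lower (7), and against the 8-week kidney the 2-week graft had 1 higher (3). P0 against E13.5 had 1 higher (3), the 8-week kidney 2 lower than P0 (5), and against E13.5 1 higher (2) and 2 lower (4). With the background from negative controls, or with normexp after replacing failed backgrounds (chosen after seeing the data), 3 members in the 2-week and 2 in the 4-week graft were lower than E13.5, since Pax2 and Dll1 fell short. Plain normexp gave 0 higher in the 2-week graft against E13.5 and 1 lower at P0 against E13.5. Its background mean on the E13.5 array was -992, against 20.7 to 27.5 elsewhere, and became 22.2 once 5 spots with a background over 100 were replaced. For the 4-week graft against the 8-week kidney, 4 members were higher without the shift, 3 in the authors' table and 2 with no background filter (1 in the report), and 5 were lower after quantile normalization (3). The 8-week kidney had 1 member higher than E13.5 without the shift and in the authors' table (2).

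Without the shift, the share of higher among called genes became 29.0% for the 8-week kidney against P0 (53.0% in the report) and 34.4% against E13.5 (50.1%), 47.4% for the 4-week graft against P0 (58.1%) and 45.6% against the 2-week graft (61.6%). Plain normexp, with its failed fit at E13.5, gave 21.3% for the 2-week graft (51.4%), 23.9% for the 4-week graft (52.8%), 16.3% for P0 (53.9%) and 28.9% for the 8-week kidney (50.1%), each against E13.5. With the second Notch2 probe, A_55_P1982793 (chosen after seeing the data), the difference of the 2-week graft from the 8-week kidney was -0.43 in place of 1.40. The cause of these changes was not tested. Comparisons within a slide are the same arrays as in the report. No paired analysis was possible because each group is 1 array. Signal over background limits Pax2, Fgf8 and, in the grafts, Lhx1.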
